A study of Mus musculus with 12 samples.

Results

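Collagen and laminin genes were followed in retinas after an acute rise in intraocular pressure (IOP). The members were taken by symbol from the expression table: every row that began with Col and a digit, or with Lama, Lamb or Lamc and a digit. The rule took 56 of 24340 rows, of which 44 are collagen chains, 11 are laminin chains and 1, Col4a3bp, is the gene of the ceramide transfer protein and not a collagen. All 56 were above 0 in at least 1 library, as were 18509 rows of the table, and these rows were tested.

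The mice were 6 p16‐3MR animals aged 12 to 16 weeks, and RNA of each retina was sequenced. Their transgene puts luciferase, a red fluorescent protein and a herpes simplex virus thymidine kinase under the p16Ink4a regulatory region. A single eye of each mouse was held at 85 to 90 mm Hg for 60 min, and the contralateral eye was the control. Mice 1, 2 and 5 received ganciclovir (GCV, 25 mg/kg by intraperitoneal injection every day), which the viral kinase turns toxic, and mice 3, 4 and 6 were mock‐treated. Retinas were collected after 3 days, which gave 4 groups of 3 libraries: control and IOP‐treated retinas without GCV, and control and IOP‐treated retinas with GCV. GCV reached both eyes, and every mouse carried the transgene, so an action of GCV itself and the loss of cells that express p16Ink4a cannot be told apart. Pressure of this height can also slow retinal blood flow, so pressure and lack of blood cannot be told apart either.

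Laminins are cross‐shaped trimers of an alpha, a beta and a gamma chain, and they polymerize at the cell surface into the sheet on which a basement membrane is built. Type IV collagen forms the covalent network of that membrane, in the eye at the inner limiting membrane under the Müller glia endfeet, around vessels, in Bruch's membrane, and in the lens capsule. Fibrillar collagens give the tensile fibers of sclera, cornea and vitreous, and fibril‐associated collagens coat these fibers.

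Values are FPKM (fragment counts scaled by transcript length and by library size), and values within a group are given in the order of mice 3, 4 and 6 without GCV and of mice 1, 2 and 5 with GCV. Depth was estimated at 4.0e+06 fragments in the IOP‐treated retina of mouse 6 and at 6.83e+06 to 9.09e+06 in the other libraries. Rod markers summed to 33202 to 62067 FPKM in every library, as retina should hold. Summed over 8 ganglion cell markers, the IOP‐treated retina of mouse 4 lay at its control level (779.6 against 801 FPKM), while those of the other 5 mice were all below their control eye. Lens markers (12 genes) summed to 7.76 to 130.3 FPKM in 5 control retinas and to 7129 FPKM in the control retina of mouse 1, and to 3271 to 6491 FPKM in 5 IOP‐treated retinas and 105 FPKM in that of mouse 3. Lens Lctl was at 0 in the control retinas without GCV. All 8 leukocyte markers were higher in the IOP‐treated eye of all 6 mice.

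Most members were low in the retina. The median of the members' mean levels was 0.856 FPKM, against 5.05 FPKM over all rows tested. A mean of at least 1 FPKM was reached by 26 of 56 members (46.4%) and by 69.7% of all rows, although the share above 0 in every library was alike (75% and 74.8%). The highest means were those of Col4a3bp (19.6 FPKM), the type IV chain Col4a3 (10.6 FPKM) and the transmembrane collagen Col23a1 (10.1 FPKM). By class, all 6 type IV chains had a mean of at least 1 FPKM, as did 5 of 9 fibril‐associated, 3 of 11 fibrillar and none of 5 laminin alpha chains. The laminin beta and gamma chains of highest mean, Lamb1 and Lamc1, reached 2.27 and 3.77 FPKM, against 0.910 FPKM for Lama5, the alpha chain of highest mean.

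**Figure D1:**
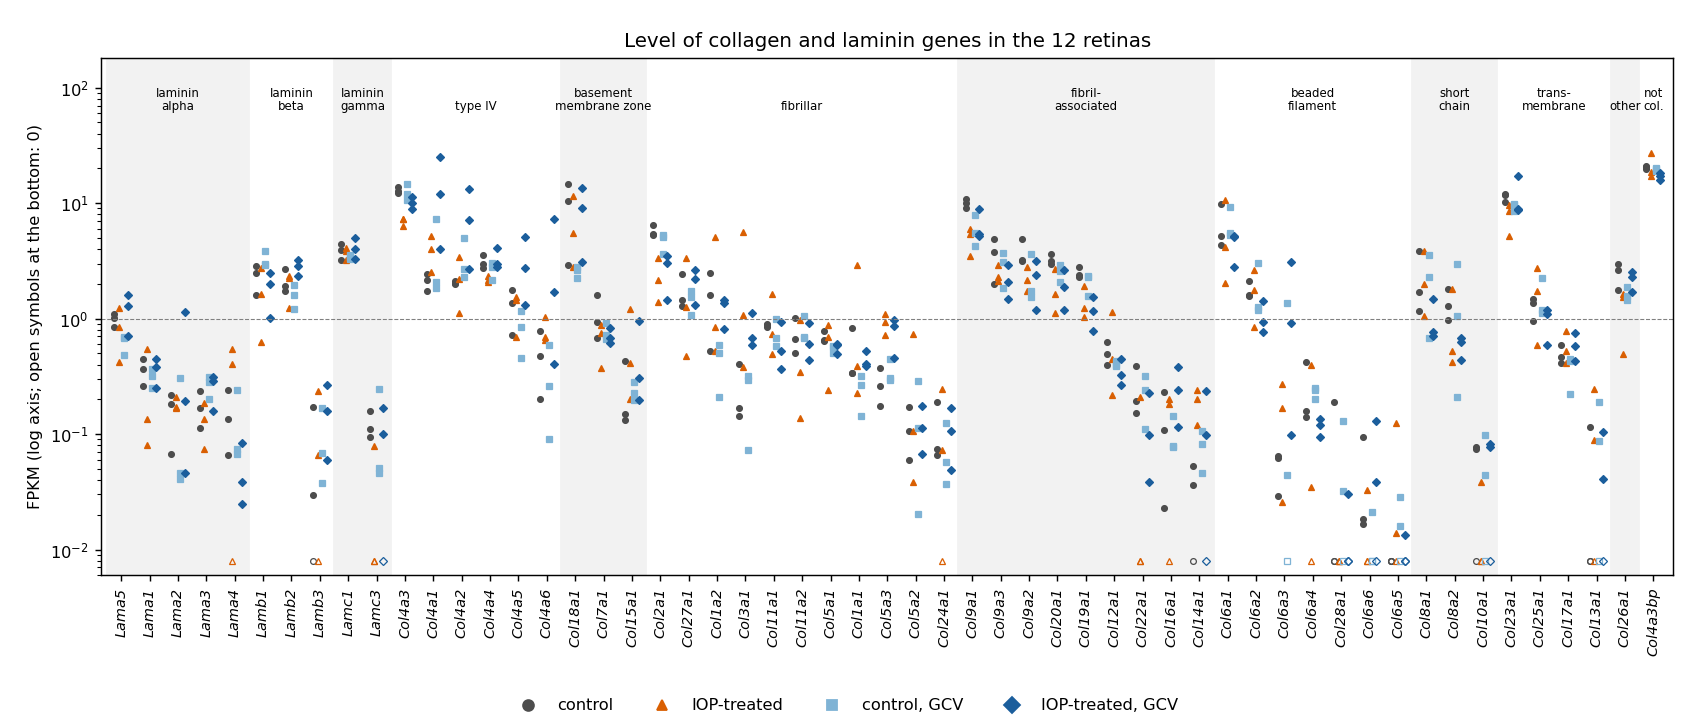
Level of the members, 1 of which is not drawn, in FPKM (log axis) by structural class, ordered by mean within a class, with 1 symbol per retina and open symbols at the bottom for values of 0. The dashed line marks 1 FPKM, which 26 members reached on average, and Col4a3, Col23a1 and Col4a3bp lie highest by mean.

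To ask which members responded to pressure, IOP‐treated and control retinas were compared without GCV, with GCV, and on average over both arms. A member was called at an adjusted p under 0.05 with limma on log2(FPKM + 1), adjusted over all rows tested, and a fold change on this scale understates the change of low genes. In the averaged comparison, Col5a3, a fibrillar chain of type V collagen, rose, and Col4a3, Col2a1 (type II collagen) and the fibril‐associated Col19a1 fell. These 4 were 7.14% of the members, against 12.2% of all rows called (6.76% higher and 5.44% lower), so the members were called no more often than rows at large. At an unadjusted p under 0.05 there were 11 members (19.6%), against 30.3% of all rows. The median log2 change of the members was -0.014, against 0.0089 over all rows.

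The number of calls varied with the libraries, although Col4a3 and Col5a3 were called in each of 12 fits that left out a library. With the IOP‐treated retina of mouse 4 left out, 9 members were called, and calls over all rows went from 2258 to 4499: Lamb1, Col20a1, Col22a1 and Col6a4 were then called lower and Col3a1 higher, beside the former 4. Without both retinas of mouse 3, no member was called, and calls over all rows went to 429.

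Without GCV, Col4a3 alone was called (1.79% of the members, against 1.65% of all rows), and it was lower. Calls of lower rows were rare in this comparison, at 0.232% of all rows. At an unadjusted p under 0.05, 9 members (16.1%) passed, against 18.9% of all rows. With GCV, no member was called with limma, against 1.8% of all rows, the smallest adjusted p was 0.138, and 8 members passed an unadjusted p under 0.05 (14.3%, against 19.2%).

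Members were also compared within each mouse, which sets aside differences between animals. The IOP‐treated eye lay above the control eye in 6 of 6 mice for 3 members (5.36%, against 10.7% of all rows), Col3a1, Col4a1 and Col5a3. It lay below in 6 of 6 mice for 5 members (8.93%, against 10.1% of all rows): Col4a3, Col2a1, Col19a1, Col11a2 and Col6a4. Both shares were under those of all rows. With mouse 6 left out, 14 members had the same direction in the other mice instead of 8, and 5018 of all rows instead of 3854. Without GCV, all 3 IOP‐treated retinas lay above all 3 controls for 3 members (5.36%, against 11.7% of all rows) and below them for 10 (17.9%, against 8.81%): Col4a3, Col4a4, Col2a1, Col9a1, Col9a2, Col19a1, Col20a1, Col23a1, Col26a1 and Lamc3. With GCV, they lay above for 8 members (14.3%, against 14.5%) and below for 6 (10.7%, against 15.3%). Of these 4 shares, that below control without GCV alone exceeded the share of all rows, and this excess was not tested. Groups that did not overlap in either arm, with the same direction in both, were seen for Col5a3 above control (1 of 56, 1.79%, against 6.65% of all rows) and for Col2a1 and Col19a1 below control (2 of 56, 3.57%, against 3.46%).

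**Figure D2:**
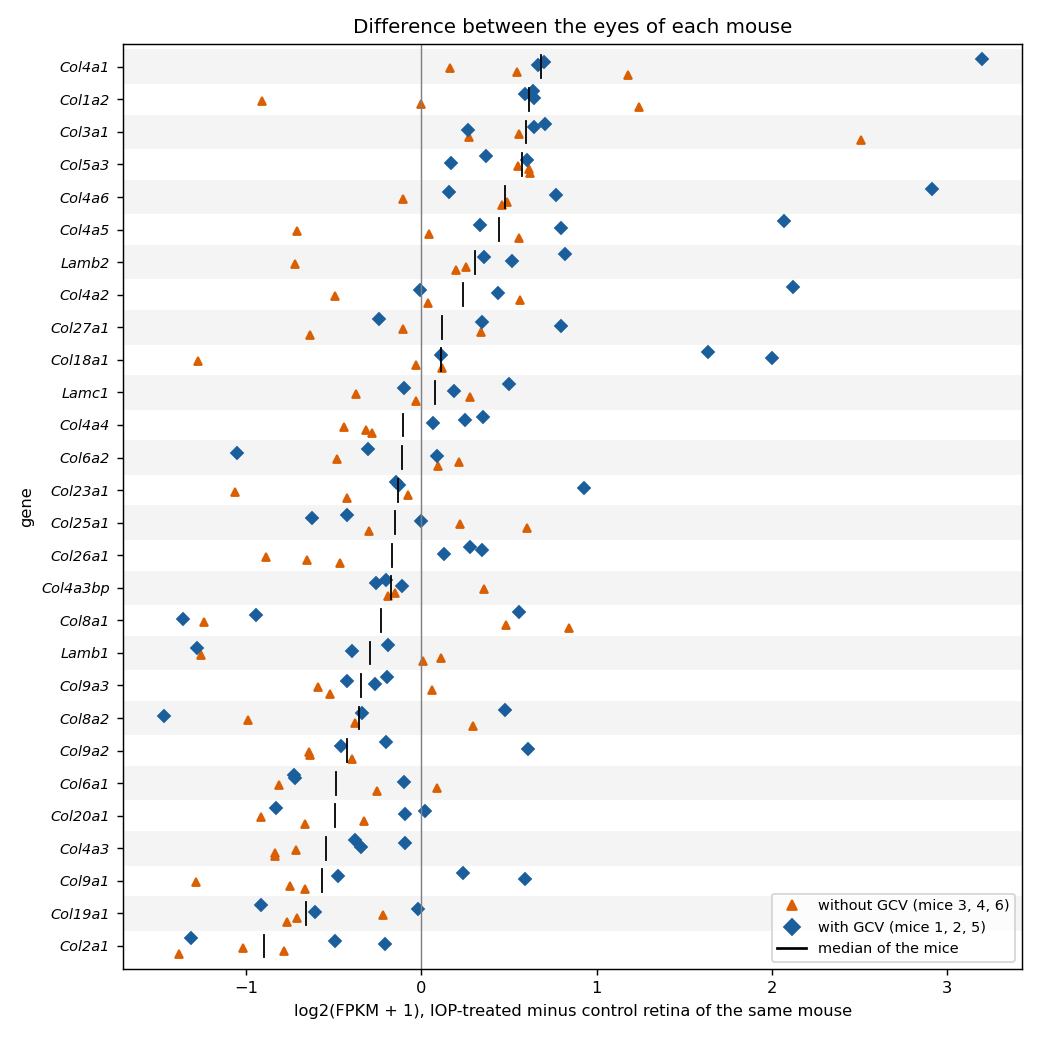
Difference between the eyes of each mouse, on the log2(FPKM + 1) scale, for the 26 members with a mean of at least 1 FPKM and for Col3a1 and Col5a3, ordered by the median of the 6 mice. For Col4a1, Col3a1 and Col5a3 all 6 symbols lie right of 0, for Col4a3, Col19a1 and Col2a1 all lie left of it, and for Col4a4 and Col26a1 the arms fall on opposite sides.

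Among the laminins no chain was called in any comparison. Lamc1, the gamma chain of most laminin trimers, was the laminin gene with the highest level per length, at 3.93, 3.22 and 4.47 in control and at 3.82, 4.12 and 3.22 FPKM in IOP‐treated retinas without GCV. With GCV it was at 3.40, 3.55 and 3.26 in control and at 4.0, 3.26 and 5.03 FPKM in IOP‐treated retinas. The groups overlapped in both arms, and the averaged log2 change was 0.077 ± 0.12 (SE, adjusted p = 0.708).

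Of the beta chains, Lamb2 is the chain of the laminins of mature retina and synapses, and its loss in people causes Pierson syndrome of kidney and eye. Its levels without GCV were 1.91, 1.73 and 2.69 in control, against 2.33, 2.26 and 1.24 FPKM in IOP‐treated retinas, which overlapped. With GCV, levels were 1.97, 1.59 and 1.20 in control, against 3.25, 2.32 and 2.88 FPKM in IOP‐treated retinas, which did not overlap, yet the change of 0.56 ± 0.21 on the log2 scale was not called (adjusted p = 0.184). Lamb1, the beta chain of embryonic and vascular laminins, was at 1.60, 2.48 and 2.88 in control and at 1.62, 2.77 and 0.624 FPKM in IOP‐treated retinas without GCV. With GCV it was at 2.93, 3.88 and 2.98 in control and at 1.98, 1.01 and 2.49 FPKM in IOP‐treated retinas. Here all IOP‐treated retinas with GCV lay below the controls, while the groups without GCV overlapped (averaged log2 change -0.50 ± 0.22, adjusted p = 0.159, and called only with the mouse 4 IOP‐treated retina left out, adjusted p = 0.0440).

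The alpha chains carry the sites that bind receptors. Lama5 was at 0.847, 1.01 and 1.09 in control and at 0.843, 1.23 and 0.424 FPKM in IOP‐treated retinas without GCV, and at 0.698, 0.682 and 0.480 (control) and 1.30, 0.712 and 1.61 FPKM (IOP‐treated) with GCV. IOP‐treated retinas with GCV all lay above the controls, by a narrow margin in mouse 2, and the change of 0.43 ± 0.19 was not called (adjusted p = 0.249). Lama1, the alpha chain of the inner limiting membrane during its formation, was at 0.261, 0.446 and 0.367 in control and at 0.135, 0.550 and 0.0803 FPKM in IOP‐treated retinas without GCV, and at 0.369, 0.319 and 0.249 (control) and 0.379, 0.249 and 0.450 FPKM (IOP‐treated) with GCV, with overlap in both arms. Lama2, Lama3, Lama4, Lamb3 and Lamc3 had means of 0.0883 to 0.232 FPKM. Summed over the 11 chains, laminins came to 6.12 FPKM in the IOP‐treated retina of mouse 6, the shallowest library, and to 8.19 to 14.5 FPKM in the other retinas.

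The type IV genes lie in pairs, head to head on opposite strands. Col4a3 (chr1:82586921-82722059, plus strand, mm10) and Col4a4 (chr1:82448423-82586849, minus strand) start 72 bases apart, Col4a1 (chr8:11198423-11312826, minus strand) and Col4a2 (chr8:11312805-11449287, plus strand) overlap by 22 bases at their starts, and Col4a5 (chrX:141475385-141689234, plus strand) and Col4a6 (chrX:141165403-141474076, minus strand) start 1309 bases apart. The promoters of Col4a2 and Col4a4 are shown because each window of 300 bases holds the starts of both genes of its pair, and the results differ within the pairs. They are RefSeq sequences of GRCm38.p6, the same assembly as mm10, at chr8:11312555-11312854 on the plus strand and chr1:82586800-82587099 on the minus strand, 5′ to 3′. They run from 250 bases before to 50 bases after the gene's start, with capitals for 3 motifs on either strand, which do not overlap here: the TATA box (TATAAA), the CCAAT box, and the GC box (GGGCGG).
Col4a2: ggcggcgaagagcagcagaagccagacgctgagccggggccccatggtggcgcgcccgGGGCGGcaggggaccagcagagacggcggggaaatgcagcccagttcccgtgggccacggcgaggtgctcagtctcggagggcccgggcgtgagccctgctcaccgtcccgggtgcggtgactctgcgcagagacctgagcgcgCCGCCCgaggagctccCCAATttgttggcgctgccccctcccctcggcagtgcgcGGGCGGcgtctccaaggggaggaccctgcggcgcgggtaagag
Col4a4: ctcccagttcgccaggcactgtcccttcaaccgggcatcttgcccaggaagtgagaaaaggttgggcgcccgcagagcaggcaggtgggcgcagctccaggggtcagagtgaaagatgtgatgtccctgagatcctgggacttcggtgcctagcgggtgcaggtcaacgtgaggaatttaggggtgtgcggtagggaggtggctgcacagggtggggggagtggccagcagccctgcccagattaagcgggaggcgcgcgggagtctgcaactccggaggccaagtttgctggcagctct
The Col4a2 window held 1 CCAAT box and 3 GC boxes, and the Col4a4 window held none of the 3 motifs, which says only that these letters are not in it. Over all 32851 promoters of the same length, 13.6% held the TATA box, 37.4% the CCAAT box and 35.7% the GC box. Of 44 promoters that matched 40 of the 56 members, the shares were 11.4%, 31.8% and 59.1%.

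Col4a3, a chain of the mature basement membrane network whose mutation causes Alport syndrome, was the type IV gene with the highest mean level and the lowest adjusted p. Without GCV it was at 13.8, 12.1 and 12.7 FPKM for the controls and at 7.26, 6.36 and 7.35 FPKM in IOP‐treated retinas, with a wide gap between the groups. With GCV it was at 14.7, 10.6 and 12.0 FPKM for the controls and at 11.4, 9.93 and 8.98 FPKM in IOP‐treated retinas, where the groups overlapped although each mouse was lower in the IOP‐treated eye. The log2 change was -0.80 ± 0.14 (SE) without GCV (adjusted p = 0.0225) and -0.27 ± 0.14 with GCV (adjusted p = 0.306). On average over the arms it was -0.53 ± 0.10 (adjusted p = 0.00865), a call that held in each of 12 fits that left out a library. With the mouse as a block, the averaged call remained (adjusted p = 0.0234) and the call without GCV did not (adjusted p = 0.0621). That call was also lost without any single control library of the arm and with the mouse 3 IOP‐treated retina left out (adjusted p up to 0.116).

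At its mean level Col4a3 rests on 363 to 824 estimated fragments per library. Of its 9967 exon bases, 563 are shared with C430014B12Rik on the opposite strand, and whether the counting used strand is not given. The difference between the eyes in Col4a3 was -0.84 on the log2 scale in mouse 4, where ganglion cell markers stood at the control level, and -0.84 and -0.71 in mice 3 and 6, where those markers were lower. Müller glia markers (7 genes) summed to 1322 to 1723 FPKM in control retinas and to 553 to 1182 FPKM in IOP‐treated retinas. By gene, 6 or 7 of the 7 were lower in the IOP‐treated eye of mice 2, 3, 5 and 6. In mice 1 and 4, 4 of 7 were higher, with median log2 differences of 0.050 and 0.0011, while Col4a3 was lower in both. The Müller glia markers Glul and Rlbp1 were lower in the IOP‐treated eye of every mouse, mice 1 and 4 included. On average over the arms, 2 of the 7 were called lower, against 5.44% of all rows. The part of ganglion cells and Müller glia in the result was not tested. In a bulk sample such as this, fewer cells of a type and less RNA per cell cannot be told apart.

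Col4a4 is assembled into the same trimer as Col4a3, together with Col4a5. Its levels without GCV were 2.76, 2.94 and 3.55 in control, against 2.10, 2.17 and 2.36 FPKM in IOP‐treated retinas, lower in all 3 mice. With GCV they were 2.81, 2.17 and 3.01 in control, against 2.99, 2.78 and 4.12 FPKM in IOP‐treated retinas, higher in all 3 mice. Neither change was called (adjusted p = 0.291 and 0.526). The ratio of Col4a3 to Col4a4 (linear, FPKM over FPKM) was 4.99, 4.12 and 3.57 in control and 3.46, 2.93 and 3.12 in IOP‐treated retinas without GCV. It was 5.23, 4.90 and 3.98 in control and 3.79, 3.58 and 2.18 in IOP‐treated retinas with GCV. It was therefore lower in the IOP‐treated eye of 6 of 6 mice, by -0.50 ± 0.21 (SD, n = 6 mice) on the log2 scale. This ratio was examined after the values had been seen, an exact two‐sided sign‐flip test over mice gave p = 0.0312, the smallest it can give, and the adjusted value over the 3 pairs was 0.0625.

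Col4a1 and Col4a2 make the network of nearly all basement membranes, and Col4a1 is mutated in small vessel disease of brain and retina. Col4a1 was at 1.73, 2.43 and 2.15 in control and at 5.18, 4.02 and 2.52 FPKM in IOP‐treated retinas without GCV, groups that lay close but apart. With GCV it was at 7.26, 2.07 and 1.83 in control and at 12.1, 3.99 and 24.9 FPKM in IOP‐treated retinas, which overlapped because mouse 1 was high in both eyes. All 6 mice were higher in the IOP‐treated eye. The averaged change of 1.07 ± 0.40 was not called (adjusted p = 0.0997), and it was called (adjusted p = 0.0295) in 1 of 12 fits that left out a library, the one that lacked the mouse 2 IOP‐treated retina.

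Col4a2 was at 2.11, 2.02 and 1.98 in control and at 2.20, 3.45 and 1.12 FPKM in IOP‐treated retinas without GCV, and at 4.98, 2.69 and 2.28 (control) and 7.09, 2.67 and 13.3 FPKM (IOP‐treated) with GCV. It was higher in the IOP‐treated eye of 4 of 6 mice and not called (averaged log2 change 0.44 ± 0.32, adjusted p = 0.392). The ratio of Col4a1 to Col4a2 spanned 0.769 to 2.36 and was higher in the IOP‐treated eye of 5 of 6 mice (exact sign‐flip p = 0.0625, the same after adjustment).

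Col4a5 and Col4a6 lie on the X chromosome and were the type IV genes of lowest mean. Col4a5 was at 0.723, 1.37 and 1.77 in control and at 1.54, 1.45 and 0.691 FPKM in IOP‐treated retinas without GCV, and at 1.16, 0.844 and 0.460 (control) and 2.77, 1.32 and 5.12 FPKM (IOP‐treated) with GCV. Col4a6 was at 0.476, 0.203 and 0.778 in control and at 1.03, 0.687 and 0.656 FPKM in IOP‐treated retinas without GCV, and at 0.594, 0.260 and 0.0898 (control) and 1.72, 0.404 and 7.23 FPKM (IOP‐treated) with GCV. Both were higher in the IOP‐treated eye of 5 of 6 mice, both were highest in the IOP‐treated retina of mouse 5, and neither was called on average (adjusted p = 0.175 and 0.163). Their ratio spanned 0.709 to 6.76, and it was lower in the IOP‐treated eye of 5 of 6 mice (exact sign‐flip p = 0.0625).

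**Figure D3:**
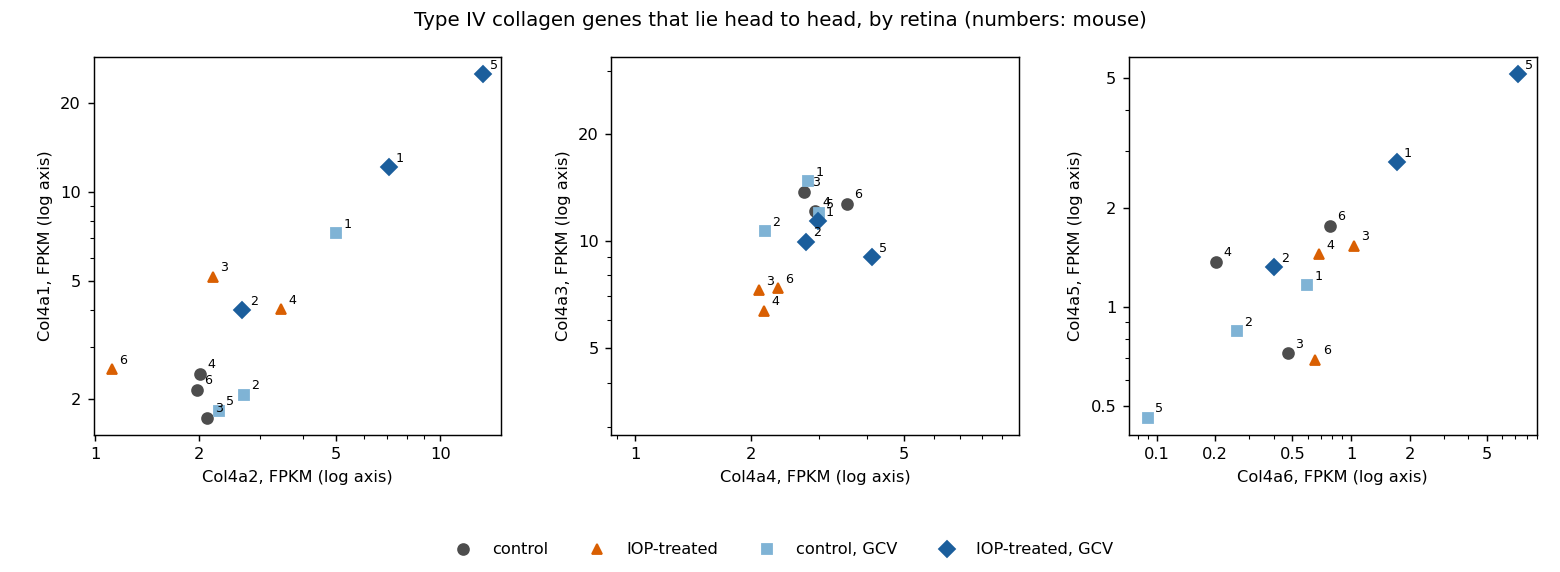
Levels in FPKM (log axes) of the 2 genes of each type IV pair, with 1 symbol per retina and the mouse number beside it. The IOP‐treated retinas without GCV form the low end of the Col4a3 panel at 6.36 to 7.35 FPKM, and the IOP‐treated retina of mouse 5 is highest for Col4a1, Col4a2, Col4a5 and Col4a6.

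The retinas in which Col4a1 was highest also held the most RNA of Nid1, the nidogen that links the laminin and type IV networks. Nid1 was at 0.0874, 0.0933 and 0.351 in control and at 1.16, 0.641 and 0.510 FPKM in IOP‐treated retinas without GCV, and at 5.19, 0.154 and 0.149 (control) and 5.01, 0.395 and 19.5 FPKM (IOP‐treated) with GCV. The IOP‐treated retinas of mice 5 and 1 and the control retina of mouse 1 were the 3 highest for both genes, across groups. The second nidogen gene, Nid2, was at 0.508 to 1.49 FPKM in these 3 and highest elsewhere, at 1.74 FPKM in the control retina of mouse 6. Lens markers summed to 5077, 6491 and 7129 FPKM in these retinas, and to 5114 FPKM in the IOP‐treated retina of mouse 4, where Col4a1 was at 4.02 FPKM. Leukocyte markers summed to 2633 FPKM in the IOP‐treated retina of mouse 5, the highest of all, and to 25.5 FPKM in the control retina of mouse 1. The part of these tissues in the level of Col4a1 was not tested.

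Collagens of the basement membrane zone anchor or regulate that sheet. Col18a1, the source of endostatin and the gene of Knobloch syndrome with its vitreous and retinal defects, was at 10.5, 2.89 and 14.7 in control and at 11.4, 2.81 and 5.48 FPKM in IOP‐treated retinas without GCV. In mice with GCV it was at 2.64, 2.78 and 2.27 in control and at 13.6, 3.09 and 9.16 FPKM in IOP‐treated retinas. The groups with GCV lay apart, those without overlapped, and the values formed a high and a low set that did not follow pressure: both retinas of mice 3 and 6 and the IOP‐treated retinas of mice 1 and 5 held 5.48 to 14.7 FPKM, and the other 6 held 2.27 to 3.09 FPKM. Fibulin 1, a binding partner of basement membranes and elastic fibers, divided the retinas in the same way, with Fbln1 at 20.9, 0.722 and 29.6 in control and at 24.2, 0.608 and 23.3 FPKM in IOP‐treated retinas without GCV, and at 2.20, 0.772 and 1.19 (control) and 22.6, 2.91 and 17.0 FPKM (IOP‐treated) with GCV. Col18a1 was not called (averaged log2 change 0.43 ± 0.43, adjusted p = 0.544). Pigment epithelium markers (8 genes) summed to 109, 75.4 and 242 FPKM in control and 264, 58.0 and 133 FPKM in IOP‐treated retinas without GCV, and to 305, 205 and 17.7 FPKM in control and 59.0, 71.8 and 63.3 FPKM in IOP‐treated retinas with GCV. Fibroblast markers (7 genes) summed to 10.9 to 94.7 FPKM in the 6 retinas with high Col18a1, to 4.32 to 7.43 FPKM in 5 of the 6 with low Col18a1, and to 14.5 FPKM in the control retina of mouse 1. The part of these cells in the level of Col18a1 was not tested.

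Col7a1, the anchoring fibril collagen of skin, was at 0.939, 1.60 and 0.685 in control and at 0.377, 0.873 and 0.748 FPKM in IOP‐treated retinas without GCV, and at 0.720, 0.661 and 0.919 (control) and 0.677, 0.837 and 0.617 FPKM (IOP‐treated) with GCV. The groups overlapped in both arms. Col15a1, a vessel and muscle collagen, had a mean of 0.392 FPKM and was not called.

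Among the 11 fibrillar chains, Col2a1 fell and Col5a3 rose. Col2a1 (chr15:97975602-98004695, minus strand, mm10), the main collagen of vitreous and cartilage and the gene of Stickler syndrome with its retinal detachment, was at 5.26, 6.45 and 5.39 in control and at 1.40, 3.33 and 2.15 FPKM in IOP‐treated retinas without GCV. In mice with GCV it was at 3.65, 5.34 and 5.10 in control and at 3.03, 3.51 and 1.46 FPKM in IOP‐treated retinas. All IOP‐treated retinas lay below all controls of their arm, and group means without GCV were 5.70 ± 0.653 FPKM for control and 2.30 ± 0.974 FPKM for pressure (SD, n = 3). The averaged log2 change was -0.87 ± 0.19 (adjusted p = 0.0227, and 0.0452 with the mouse as a block), whereas neither arm passed alone (adjusted p = 0.0962 without and 0.220 with GCV). The averaged call held in 7 of 12 fits that left out a library, with an adjusted p of 0.00639 to 0.0678. It was lost without any single control retina of mice 3, 4 or 6, and without that of mouse 2 or 5. With both retinas of a mouse left out, it held for mouse 4 and was lost for each of the other 5 mice (adjusted p 0.0217 to 0.0987). The Müller glia markers described beside Col4a3 were lower for at least 6 of 7 genes in 4 of 6 mice, and their part in Col2a1 was not tested.

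Col5a3 (chr9:20770050-20815067, minus strand, mm10), a chain of type V collagen, which starts and narrows fibrils, was low in control retinas. It was at 0.260, 0.371 and 0.174 in control and at 0.937, 1.10 and 0.718 FPKM in IOP‐treated retinas without GCV, and at 0.291, 0.307 and 0.443 in control and at 0.455, 0.982 and 0.864 FPKM in IOP‐treated retinas with GCV. The groups did not overlap in either arm, with the smallest margin in mouse 1. The averaged log2 change was 0.49 ± 0.09 (adjusted p = 0.0103, and 0.0227 with the mouse as a block), and the call held in each of 12 fits that left out a library. Without GCV the change was 0.59 ± 0.13 (adjusted p = 0.0502), and with GCV 0.38 ± 0.13 (adjusted p = 0.153). At its mean level Col5a3 rests on 14.1 to 32.0 estimated fragments per library, and it did not pass a filter of at least 1 FPKM in 3 libraries. Lens markers were high in 5 of 6 IOP‐treated retinas and 1 of 6 control retinas, as given above, and leukocyte markers summed to 17.7 to 65.4 FPKM in control retinas and to 213 to 2633 FPKM in IOP‐treated retinas, and the part of both in Col5a3 was not tested. Its promoter (chr9:20815018-20815317, minus strand, GRCm38.p6) is shown with that of Col19a1 (chr1:24587388-24587687, minus strand) as those of a riser and a faller, with the same motifs in capitals.
Col5a3: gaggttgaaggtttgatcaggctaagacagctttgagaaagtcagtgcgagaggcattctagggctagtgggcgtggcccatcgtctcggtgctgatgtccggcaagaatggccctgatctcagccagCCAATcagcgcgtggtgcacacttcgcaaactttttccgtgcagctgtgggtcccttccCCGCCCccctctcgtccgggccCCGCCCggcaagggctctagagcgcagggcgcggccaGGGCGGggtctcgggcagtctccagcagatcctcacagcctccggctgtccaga
Col19a1: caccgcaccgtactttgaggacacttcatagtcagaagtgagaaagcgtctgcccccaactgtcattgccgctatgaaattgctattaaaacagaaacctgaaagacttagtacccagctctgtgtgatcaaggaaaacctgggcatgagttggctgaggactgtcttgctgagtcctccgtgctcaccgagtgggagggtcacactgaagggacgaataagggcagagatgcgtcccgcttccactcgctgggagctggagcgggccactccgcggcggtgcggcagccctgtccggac
The Col5a3 window held 1 CCAAT box and 3 GC boxes, and the Col19a1 window none of the 3 motifs.

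Col3a1, the collagen of vessel walls and scars, was higher in the IOP‐treated eye of 6 of 6 mice. It was at 0.167, 0.142 and 0.403 in control and at 5.65, 0.381 and 1.07 FPKM in IOP‐treated retinas without GCV, and at 0.320, 0.0721 and 0.297 (control) and 0.589, 0.673 and 1.12 FPKM (IOP‐treated) with GCV. Groups overlapped without GCV, where most of the difference lay in mouse 3, and lay apart with GCV, and the averaged change of 0.83 ± 0.31 was not called (adjusted p = 0.106), though it was with a pseudocount of 0.1. The same retina was highest for both chains of type I collagen, with Col1a1 at 2.92 FPKM against 0.143 to 0.834 FPKM elsewhere and Col1a2 at 5.14 FPKM against 0.209 to 2.49 FPKM elsewhere. It also held the most fibroblast marker RNA (7 genes, 94.7 FPKM against 4.32 to 33.8 FPKM in the other libraries), led by the fibril proteoglycan decorin (Dcn, 63.9, 1.86 and 8.39 FPKM in IOP‐treated retinas without GCV). In the other 5 mice, fibroblast markers of the IOP‐treated retinas summed to 4.32 to 18.8 FPKM, within the range of 6.17 to 33.8 FPKM of the control retinas except for mice 2 and 4 below it. Within mouse 5 the sum was 6.30 FPKM in the control and 18.8 FPKM in the IOP‐treated retina, with 6 of 7 genes higher. Of the 7 genes, 6 were lower in the IOP‐treated eye of mice 1, 4 and 6, and 4 in that of mouse 2. Pericyte and smooth muscle markers (9 genes) summed to 84.7 FPKM in the IOP‐treated retina of mouse 3 and to 13.2 to 29.9 FPKM in the other libraries, and endothelial markers (10 genes) to 21.6 to 61.7 FPKM in all libraries. The part of these cells in Col3a1 was not tested.

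Col27a1, a cartilage fibril collagen, was the fibrillar gene next to Col2a1 in mean level. It was at 1.29, 2.44 and 1.44 in control and at 0.473, 3.35 and 1.27 FPKM in IOP‐treated retinas without GCV, and at 1.08, 1.53 and 1.73 (control) and 2.62, 2.22 and 1.31 FPKM (IOP‐treated) with GCV, with overlap in both arms. Col11a2 was lower in the IOP‐treated eye of 6 of 6 mice, but its averaged change was -0.19 ± 0.14 (adjusted p = 0.408). The other fibrillar genes (Col1a1, Col1a2, Col5a1, Col5a2, Col11a1 and Col24a1) had averaged changes of -0.055 to 0.37 on the log2 scale, and none was called.

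**Figure D4:**
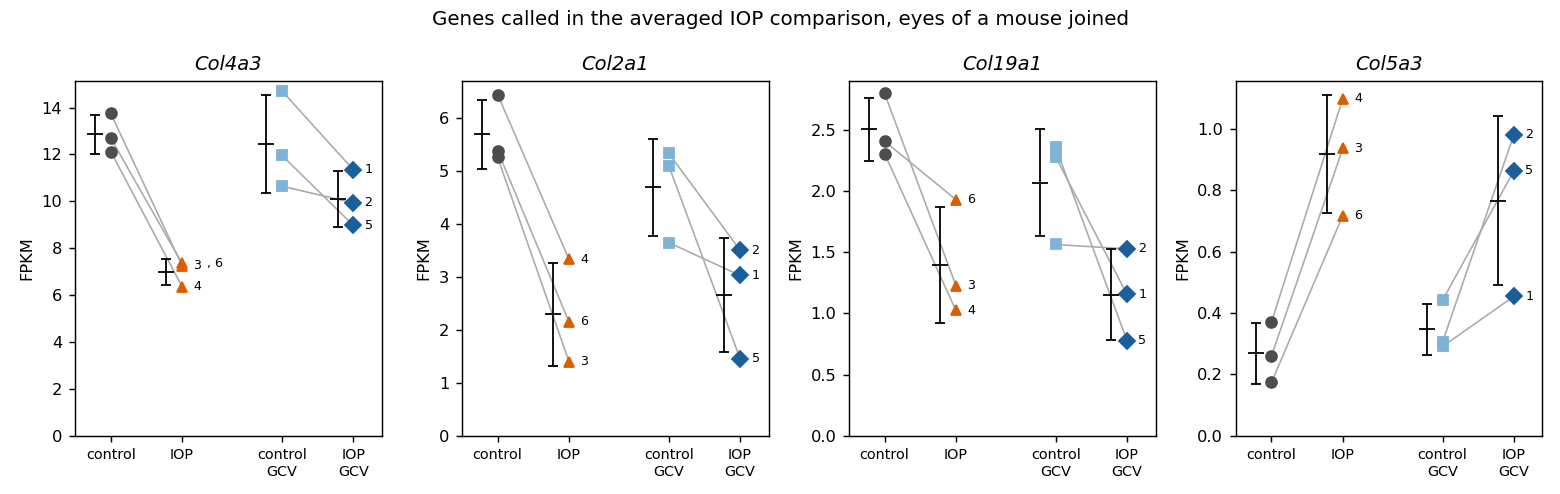
Levels in FPKM of the 4 members called in the averaged IOP comparison, with a line joining the eyes of a mouse, the mouse number beside its IOP‐treated retina, and the group mean ± SD (n = 3) as a black bar at the left of the symbols. All lines fall for Col4a3, Col2a1 and Col19a1 and rise for Col5a3, and the groups of Col4a3 with GCV (8.98 to 11.4 against 10.6 to 14.7 FPKM) overlap.

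Fibril‐associated collagens sit on the surface of type II or type I fibrils. Col19a1 (chr1:24261890-24587472, minus strand, mm10), a minor basement membrane zone and synaptic collagen made by neurons, was at 2.80, 2.31 and 2.41 in control and at 1.23, 1.02 and 1.93 FPKM in IOP‐treated retinas without GCV. In mice with GCV it was at 2.28, 1.56 and 2.36 in control and at 1.15, 1.53 and 0.778 FPKM in IOP‐treated retinas. The groups did not overlap, but in mouse 2 the eyes differed by only -0.02 on the log2 scale. The averaged change of -0.54 ± 0.14 was called (adjusted p = 0.0341), though not with the mouse as a block (adjusted p = 0.0821), and it held in 4 of 12 fits that left out a library (adjusted p 0.0200 to 0.0799). Those 4 lacked the control retina of mouse 2 or the IOP‐treated retina of mouse 2, 4 or 6. The difference was -0.71 on the log2 scale in mouse 4, where ganglion cell markers were at the control level. It was -0.77, -0.22, -0.61, -0.02 and -0.92 in mice 3, 6, 1, 2 and 5, where all 8 of these markers were lower. The part of ganglion cells was not tested.

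Type IX collagen couples type II fibrils to the vitreous matrix. Col9a1 was at 9.08, 10.8 and 9.97 in control and at 5.37, 6.01 and 3.49 FPKM in IOP‐treated retinas without GCV, where the groups lay apart. In mice with GCV it was at 5.52, 7.97 and 4.27 in control and at 8.82, 5.46 and 5.21 FPKM in IOP‐treated retinas, which overlapped. The change was -0.90 ± 0.25 without GCV (adjusted p = 0.121, and 0.0415 with the mouse 4 IOP‐treated retina left out) and 0.12 ± 0.25 with GCV (adjusted p = 0.873, and from -0.094 to 0.32 over the fits that left out a library). Col9a3 was at 3.74, 2.0 and 4.92 in control and at 2.30, 2.13 and 2.93 FPKM in IOP‐treated retinas without GCV, and at 3.71, 3.10 and 1.85 (control) and 2.92, 2.06 and 1.48 FPKM (IOP‐treated) with GCV. Col9a2 and Col9a3 were each lower in the IOP‐treated eye of 5 of 6 mice, and neither was called on average (adjusted p = 0.404 and 0.322). Col20a1 was lower in 5 of 6 mice as well, with an averaged log2 change of -0.47 ± 0.17 (adjusted p = 0.0919, and 0.0236 with the mouse 4 IOP‐treated retina left out).

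Type VI collagen makes beaded filaments around cells. Col6a1 was at 5.16, 9.85 and 4.33 in control and at 4.17, 10.6 and 2.03 FPKM in IOP‐treated retinas without GCV, and at 5.47, 9.27 and 5.31 (control) and 5.04, 5.22 and 2.81 FPKM (IOP‐treated) with GCV. Both retinas of mouse 4 and the control retina of mouse 2 were high, groups without GCV overlapped, and with GCV they lay just apart. Its partner chain Col6a2 was at 1.59, 2.13 and 1.58 in control and at 1.77, 2.63 and 0.841 FPKM in IOP‐treated retinas without GCV, and at 1.27, 3.02 and 1.18 (control) and 1.41, 0.938 and 0.767 FPKM (IOP‐treated) with GCV. Neither was called (averaged adjusted p = 0.428 and 0.475). The third chain of the classical trimer, Col6a3, was at 0.911 to 3.07 FPKM in both retinas of mouse 1 and the IOP‐treated retina of mouse 5 and at 0 to 0.271 FPKM elsewhere, the same 3 retinas that were highest for Col4a1 and Nid1. Col6a4 was lower in the IOP‐treated eye of 6 of 6 mice at levels of 0 to 0.422 FPKM and was not called (adjusted p = 0.334).

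The short‐chain collagens Col8a1 and Col8a2 make the hexagonal lattice under the corneal endothelium. Col8a1 was at 1.72, 1.15 and 3.87 in control and at 3.88, 2.01 and 1.06 FPKM in IOP‐treated retinas without GCV, and at 3.54, 2.28 and 0.677 (control) and 0.767, 0.705 and 1.47 FPKM (IOP‐treated) with GCV. Col8a2 was at 1.30, 0.975 and 1.82 in control and at 1.82, 0.521 and 0.420 FPKM in IOP‐treated retinas without GCV, and at 2.99, 1.06 and 0.210 (control) and 0.441, 0.628 and 0.683 FPKM (IOP‐treated) with GCV. Groups of both overlapped in both arms, and neither was called. Pigment epithelium markers, whose sums stand beside Col18a1, were like Col8a1 and Col8a2 highest in mouse 1 and lowest in mouse 5 among the controls with GCV. Among the controls without GCV all were highest in mouse 6 and lowest in mouse 4. In neither group of IOP‐treated retinas did the order of the mice match that of Col8a1 or Col8a2. Markers of cornea, iris and ciliary body (7 genes) summed to 103 FPKM in the IOP‐treated retina of mouse 3 and to 7.56 to 58.9 FPKM in the other libraries, and the part of these tissues was not tested.

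Transmembrane collagens are anchored in the cell that makes them. Col23a1, the highest collagen after Col4a3 by mean, was at 11.9, 10.3 and 12.0 in control and at 8.60, 9.68 and 5.23 FPKM in IOP‐treated retinas without GCV, where the groups lay apart. The GCV arm stood at 8.61, 9.86 and 9.72 in control and at 17.3, 8.96 and 8.69 FPKM in IOP‐treated retinas, and the IOP‐treated retina of mouse 1 was the highest of all. It was not called in either arm (adjusted p = 0.298 and 0.717), and its change with GCV ran from -0.080 to 0.38 over the fits that left out a library. Col25a1, a neuronal collagen first found in amyloid plaques, was at 0.959, 1.48 and 1.35 in control and at 0.593, 2.77 and 1.74 FPKM in IOP‐treated retinas without GCV, and at 1.19, 2.24 and 1.13 (control) and 1.19, 1.10 and 0.585 FPKM (IOP‐treated) with GCV, with overlap in both arms.

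Col26a1, which belongs to none of these classes, was at 2.63, 2.98 and 1.76 in control and at 1.64, 1.53 and 0.491 FPKM in IOP‐treated retinas without GCV, lower in all 3 mice. It was at 1.46, 1.59 and 1.89 in control and at 1.69, 2.29 and 2.51 FPKM in IOP‐treated retinas with GCV, higher in all 3 mice. Neither change was called (adjusted p = 0.20 and 0.629). Col4a3bp, which carries ceramide from the endoplasmic reticulum to the Golgi, was at 19.8, 20.6 and 21.1 in control and at 17.2, 18.5 and 27.4 FPKM in IOP‐treated retinas without GCV, and at 19.8, 19.0 and 20.0 (control) and 18.3, 15.7 and 17.3 FPKM (IOP‐treated) with GCV, where the IOP‐treated retinas lay below, and was not called (averaged adjusted p = 0.589).

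Whether GCV changed the response was tested as the difference between the IOP effects with and without GCV. No member and none of the 18509 rows was called with limma (0.0%), and the smallest adjusted p of a member was 0.997. At an unadjusted p under 0.05 there were 5 members (8.93%, against 1.93% of all rows, 1.23% higher and 0.708% lower): Col9a1, Col26a1, Col4a3, Col4a4 and Col4a5, all with a higher IOP effect with GCV. The size for Col4a3 was 0.52 ± 0.19 on the log2 scale (unadjusted p = 0.0204, adjusted p = 0.997), and for Col4a5 it was 1.10 ± 0.48 (unadjusted p = 0.0424, adjusted p = 0.997). So a fall of Col4a3 was called without GCV and not with GCV, but the arms were not shown to differ.

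In IOP‐treated retinas alone, no row was called with GCV against without (0.0%, smallest adjusted p of a member 0.819). At an unadjusted p under 0.05 there were 6 members (10.7%, against 4.18% of all rows, 2.59% higher and 1.59% lower), all higher with GCV: Col26a1 and the 5 type IV genes other than Col4a6. Groups lay apart for 3 of them, Col4a3, Col4a4 and Col26a1 (5.36%, against 2.68% of all rows). The other 3 overlapped and were highest in mice 1 and 5: Col4a1 was at 2.52 to 5.18 FPKM without GCV and at 12.1, 3.99 and 24.9 FPKM with GCV. This comparison shares its IOP‐treated retinas with the test of the difference above.

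In control retinas no row was called either (0.0%, smallest adjusted p of a member 1.00), and Col9a1 alone passed an unadjusted p under 0.05 (1.79% of the members, against 1.59% of all rows), at -0.69 ± 0.25 on the log2 scale, lower with GCV. Groups lay apart and lower with GCV for 7 members (12.5%, against 5.14% of all rows), Col18a1, Col1a1, Col20a1, Col23a1, Col5a1, Col9a1 and Lama5, and higher for 2 (3.57%, against 6.01%), Col4a2 and Lamb1. Summed over the 6 type IV genes, control retinas held 21.6, 21.1 and 22.9 FPKM without GCV and 31.5, 18.7 and 19.6 FPKM with GCV. IOP‐treated retinas held 19.3, 18.1 and 14.7 FPKM without GCV and 38.0, 21.1 and 63.7 FPKM with GCV. All 3 IOP‐treated retinas with GCV thus exceeded those without, and in mouse 5 most of the sum was Col4a1 and Col4a2.

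The genes that make, bind and accompany these chains were described from 3 lists. Of 30 genes of collagen synthesis and cross‐linking, 6 rose and 1 fell in the averaged IOP comparison, with a median log2 change of 0.27 against 0.0089 over all rows, and 5 were called with the mouse as a block. The risers were Bmp1, the procollagen C‐proteinase, its enhancer Pcolce, the cross‐linking enzyme Loxl4, the lysyl hydroxylases Plod1 and Plod3, and the prolyl isomerase Ppib. The single gene that fell was Tll1, a protease of the Bmp1 family. The 7 calls stand beside 12.2% of all rows called. Each call was lost in some of the 12 fits that left out a library. It held in 9 for Loxl4 and Plod3, 7 for Bmp1, 5 for Ppib, 4 for Plod1, 3 for Pcolce and 2 for Tll1. The part of leukocytes, whose markers were higher in every IOP‐treated eye, was not tested.

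Bmp1 was at 2.27, 3.17 and 3.15 in control and at 8.46, 10.8 and 3.13 FPKM in IOP‐treated retinas without GCV, and at 3.54, 3.41 and 3.40 (control) and 9.41, 9.77 and 25.3 FPKM (IOP‐treated) with GCV. It rose by 1.35 ± 0.30 log2 units (adjusted p = 0.0205) and was higher in 5 of 6 mice, the exception being mouse 6. Pcolce was at 7.51, 2.72 and 20.5 in control and at 47.6, 10.2 and 26.0 FPKM in IOP‐treated retinas without GCV, and at 5.68, 3.69 and 3.08 (control) and 18.3, 13.6 and 31.0 FPKM (IOP‐treated) with GCV. It was higher in 6 of 6 mice (log2 change 1.77 ± 0.46, adjusted p = 0.0365), with a wide spread among controls. Loxl4 was at 0.341, 0.271 and 0.522 in control and at 1.67, 0.759 and 2.09 FPKM in IOP‐treated retinas without GCV, and at 0.478, 0.222 and 0.387 (control) and 1.35, 0.938 and 2.98 FPKM (IOP‐treated) with GCV (log2 change 0.89 ± 0.19, adjusted p = 0.0182). It too was higher in 6 of 6 mice, and its groups did not overlap.

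Ppib, the highest of the list, was at 121, 104 and 107 in control and at 173, 131 and 229.8 FPKM in IOP‐treated retinas without GCV, and at 129.7, 103 and 113 (control) and 153, 155 and 202 FPKM (IOP‐treated) with GCV (adjusted p = 0.0251). Plod1 and Plod3 rose by 0.52 ± 0.14 and 0.54 ± 0.12 log2 units (adjusted p = 0.0422 and 0.0206), and with the mouse as a block their adjusted p was 0.0789 and 0.0643. Tll1 was at 1.08, 1.29 and 0.938 in control and at 0.212, 0.816 and 0.105 FPKM in IOP‐treated retinas without GCV, and at 1.00, 1.09 and 1.01 (control) and 0.925, 0.458 and 0.621 FPKM (IOP‐treated) with GCV (adjusted p = 0.0398, and 0.04998 with the mouse as a block). It was lower in 6 of 6 mice. P4hb, the other subunit of prolyl hydroxylase and the gene next to Ppib in level, had a log2 change of 0.37 ± 0.18 (adjusted p = 0.194).

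Of 13 receptors of collagen and laminin, none was called with limma (12.2% of all rows were), 3 passed an unadjusted p under 0.05 (30.3% of all rows did), and the median log2 change was 0.071. The receptors of highest mean were the collagen receptor kinase Ddr1 (log2 change 0.039 ± 0.29, adjusted p = 0.946) and the integrin chain Itgb1 (0.64 ± 0.21, adjusted p = 0.0754). Of 12 basement membrane partners, Npnt, the integrin ligand nephronectin, fell and none rose, again beside 12.2% of all rows called. Npnt was at 4.07, 5.47 and 4.97 in control and at 2.48, 4.98 and 2.58 FPKM in IOP‐treated retinas without GCV, and at 5.12, 5.23 and 4.92 (control) and 2.88, 1.85 and 1.94 FPKM (IOP‐treated) with GCV (log2 change -0.70 ± 0.16, adjusted p = 0.0238). It was lower in 6 of 6 mice, and the call held in 5 of 12 fits that left out a library. The partners of highest mean were the collagen chaperone Sparc (-0.074 ± 0.22, adjusted p = 0.849) and pikachurin, Egflam, of the photoreceptor synapse (0.21 ± 0.12, adjusted p = 0.252).

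**Figure D5:**
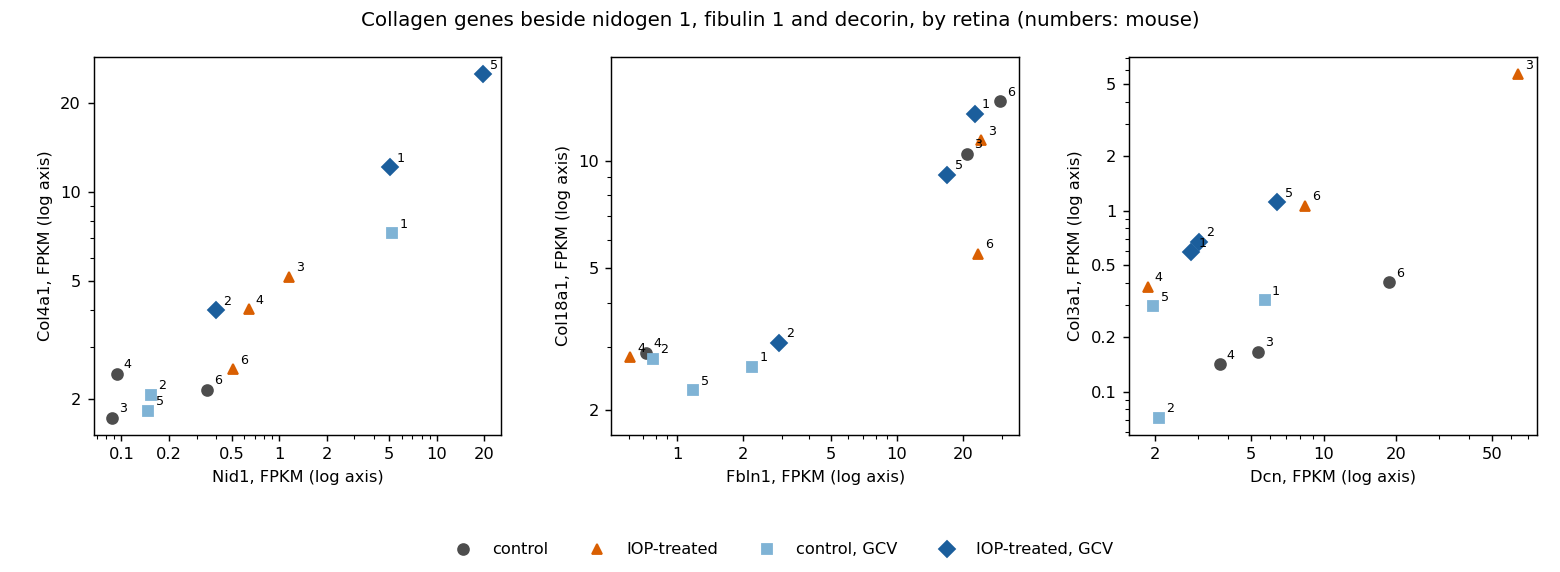
Col4a1 against Nid1, Col18a1 against Fbln1 and Col3a1 against Dcn in FPKM (log axes), with 1 symbol per retina and the mouse number beside it; the pairs were chosen after the values had been seen. Both retinas of mouse 1 and the IOP‐treated retina of mouse 5 lie at the upper right in the Nid1 panel, 6 retinas stand apart in the Fbln1 panel, and the IOP‐treated retina of mouse 3 stands apart in the Dcn panel.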

How the data were processed

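RNA from both retinas of 6 mice was made into stranded TruSeq mRNA libraries by the authors and sequenced as 2 × 50 bp pairs, and reads on exons of RefSeq genes were counted with HOMER. The submitters' processing notes name TopHat2, Bowtie2, Cufflinks, Cuffdiff and mm10, without versions. Which of these made the table, and whether strand was used, is not given in the sources used here. The authors deposited FPKM values for 24340 rows. Their unit, which the sources used here do not give, was inferred: low values times transcript length rose in even steps within a library, as whole fragments would. Depth was estimated from these steps in 1713 genes of 1 transcript and at least 1500 bases, less 170 bases. Between 81.7% and 90.7% of the values fell within 0.2 fragments of a whole number. The table holds no read counts, so intervals for single values were not computed, and values below about 1 FPKM rest on few fragments.

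All 12 columns of the table were used, and no 2 libraries were identical. The replicates of a group are retinas of separate mice. log2(FPKM + 1) was fitted for the 18509 rows above 0 with limma 3.58.1 in R 4.3.3 (4 group means, variance trend, Benjamini‐Hochberg adjustment over all rows, called under 0.05). The fit shares a spread over the groups, and its standard errors do not take up differences in spread between them. Over 12910 genes the median SD was 0.119 in control and 0.343 in IOP‐treated retinas without GCV. With GCV it was 0.140 in control and 0.199 in IOP‐treated retinas. Tables and plots used matplotlib 3.10.9, pandas 2.3.3, numpy 2.4.6 and Python 3.11.15. On simulated data with 200 of 18509 rows changed in the comparison without GCV, 46 of 100 were called at a log2 change of 1 and 86 of 100 at 2, with 4 false calls. The simulation gave a row the same spread in all groups. Its changed rows were drawn from those with a mean log2(FPKM + 1) above 1, a level that most members do not reach. These rates therefore do not describe low members or groups of unlike spread. Both eyes of a mouse share its number and so pair the samples, and deviations of paired retinas from their group means correlated at 0.207, 0.388, 0.0998, -0.117, 0.132 and 0.166 in mice 3, 4, 6, 1, 2 and 5 over 12910 genes. The mouse was a block in an alternative fit.

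Values in every library are given for members called in any comparison, for those of a single direction in all 6 mice with an unadjusted p under 0.05 on average, and for the 2 of highest mean per class; for the 3 pathway lists, called genes and the 2 of highest mean are named. The values of 1 member that meets this rule are not reported here. Other genes and values were named after they had been seen. The members, lists and rules were chosen with earlier results of these data known. Markers of 10 cell types were summed: rod, ganglion cell, Müller glia, endothelium, pericyte, fibroblast, lens, pigment epithelium, cornea with iris and ciliary body, and leukocyte. Positions are from GENCODE vM21, and 40 of 56 members matched a RefSeq promoter. Alternatives were a pseudocount of 0.1, at least 1 FPKM in 3 libraries, quantile normalization, no variance trend, only the groups compared, the block, an adjusted p under 0.1, the members without Col4a3bp and each library left out. Leaving out both retinas of a mouse was added after the data had been seen.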

Additional observations from a re-analysis of the deposited data

Results flagged for a closer look

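The IOP effect ran in opposite directions in the arms for Col26a1 and Col4a4, with every mouse of an arm moving the same way. For Col26a1 the IOP‐treated eye differed from the control eye by -0.46, -0.65 and -0.89 on the log2(FPKM + 1) scale in mice 3, 4 and 6 without GCV and by 0.13, 0.35 and 0.28 in mice 1, 2 and 5 with GCV. The difference of the effects, with minus without GCV, was 0.92 ± 0.34 (limma, unadjusted p = 0.0202, adjusted p = 0.997). For Col4a4 the differences were -0.28, -0.32 and -0.44 without GCV and 0.066, 0.25 and 0.35 with GCV, and the difference of the effects was 0.57 ± 0.24 (unadjusted p = 0.0376, adjusted p = 0.997). Neither difference passed the adjustment over all rows tested.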

How the results depend on the processing

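The 40 member changes with an unadjusted p under 0.05 kept their direction in 971 alternative fits. In these, 914 kept their side of the adjusted p threshold, 34 lost it and 23 gained it. Only changes called in the main fit could lose it (1 without GCV and 4 averaged). Most of the 914 were thus uncalled changes that stayed uncalled, and they do not show that the calls were stable. Changes above that p were not all so stable, as for Col9a1 and Col23a1 with GCV. Of the counts of called members, that without GCV (1, of 306 calls over all rows) was 0 with only the groups compared (of 325), 0 with the replicate block of the mouse (of 75) and 3 at an adjusted p under 0.1 (of 607). The cause was not tested. It ranged from 0 to 6 when a library or a mouse was left out (6, of 2432, with the mouse 4 IOP‐treated retina left out, and 0 without any control retina of the arm or the mouse 3 IOP‐treated retina). The count with GCV (0, of 334) ranged from 0 to 3 (3, of 697, Col4a1, Col4a5 and Col4a6, with the mouse 2 IOP‐treated retina left out), the averaged count (4) from 0 to 9, and the count of members with the same direction in all 6 mice (8, of 3854) from 8 to 14 when a mouse was left out (14, of 5018, without mouse 6). The averaged count (4, of 2258) was 2, of 746 to 967, without any single control retina of the mock‐treated mice, without the control retina of mouse 5, or without mouse 1 or 5. The other 3 counts stayed at 0. The pairing of the eyes as a block gave 3 averaged calls and lost Col19a1 and the call of Col4a3 without GCV. Values below 1 FPKM, as for Col5a3, rest on few fragments.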
